A study of Mus musculus with 6 samples.

Results

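Kazald1, the 6 IGF-binding proteins Igfbp2 to Igfbp7, the growth factor Igf1 and its receptor Igf1r were followed in primary mammary tumours grown from 4T1.2, a metastatic mouse mammary carcinoma line. The members were the probe sets whose gene symbol in the authors' deposited table is exactly one of these 9 symbols, which gave 24 of the 45101 probe sets on the array. Igfbp4 had 6 probe sets, Igf1r 5, Igf1 and Igfbp7 3 each, Igfbp3 and Igfbp5 2 each, and Kazald1, Igfbp2 and Igfbp6 1 each. The group was chosen by the difference of Kazald1 between Bmp4 and control tumours in these same arrays, with the other genes added as its relatives and ligand system, so the members' values are a description and no p-value supports them. In the 3 Bmp4 tumours the cells carried the retroviral vector pBabepuro with mouse Bmp4, and in the 3 control tumours the same vector without an insert. All 6 came from female BALB/c mice that received 100000 cells in an inguinal mammary fat pad at 6 to 8 weeks of age, and tumours were removed at about 0.3 g. The labels do not say whether the transduced cells were 1 clone or a pool. Nor do they say whether every tumour came from its own mouse, so errors measure the spread between these tumours. RNA of the whole tumour, cancer and host cells together, was hybridized to 1 array per tumour, so fewer cells of a type and less RNA per cell cannot be told apart.

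Insulin-like growth factors act through the receptor tyrosine kinase encoded by Igf1r. In tissue fluid they are held by IGF-binding proteins, which carry them, prolong their life and keep them from the receptor or hand them over to it, and proteases such as pappalysin release them again. Kazald1 encodes a secreted matrix protein with an IGF-binding protein domain, a Kazal-type domain and an immunoglobulin domain, first studied in bone. Igfbp7 has the same kind of domain order and binds insulin-like growth factors weakly. In mammary gland, Igfbp5 is known for its abundance during involution, when the milk-producing epithelium is removed. BMP4, the ligand forced in these tumours, signals through SMAD1, SMAD5 and SMAD9.

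The start regions of Kazald1 and Igfbp5 are shown because these were the members with the largest positive and the largest negative difference without control tumour 1. They are RefSeq windows of GRCm38.p6 from 250 bases before to 50 bases after a transcript start, read along the gene. Capitals mark CAGAC or its complement GTCTG, the core of a SMAD-binding element.
Kazald1, first start, chr19:45074991-45075290, plus strand: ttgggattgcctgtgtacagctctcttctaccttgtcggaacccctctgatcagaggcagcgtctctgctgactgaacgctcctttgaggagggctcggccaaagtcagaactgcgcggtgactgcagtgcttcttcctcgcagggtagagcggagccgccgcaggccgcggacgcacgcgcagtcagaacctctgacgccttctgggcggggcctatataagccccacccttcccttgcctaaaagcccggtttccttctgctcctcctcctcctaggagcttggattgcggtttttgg
Kazald1, second start, chr19:45075837-45076136, plus strand: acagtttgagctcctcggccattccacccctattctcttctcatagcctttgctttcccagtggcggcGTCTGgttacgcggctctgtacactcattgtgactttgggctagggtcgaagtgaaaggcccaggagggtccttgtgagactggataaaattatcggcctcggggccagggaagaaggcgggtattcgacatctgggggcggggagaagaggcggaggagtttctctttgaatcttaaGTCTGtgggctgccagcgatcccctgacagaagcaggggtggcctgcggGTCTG
Igfbp5, chr1:72874816-72875115, minus strand: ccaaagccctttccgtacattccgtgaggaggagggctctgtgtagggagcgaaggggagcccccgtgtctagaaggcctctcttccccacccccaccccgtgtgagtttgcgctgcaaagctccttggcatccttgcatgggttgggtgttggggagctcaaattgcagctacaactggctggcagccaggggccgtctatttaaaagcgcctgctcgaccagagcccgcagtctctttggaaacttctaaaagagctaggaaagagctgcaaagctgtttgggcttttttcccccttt
Both strands were searched for CAGAC and for GGCGCC, a GC-rich palindrome known to bind SMAD1 and SMAD5, and the motifs do not overlap here. CAGAC occurred 3 times in the window of the second Kazald1 start, with first bases at -182, -4 and 46 from the start, and neither the first Kazald1 window nor the Igfbp5 window held it. Among all 32851 RefSeq windows, 49.6% held CAGAC and 3.9% held it at least 3 times. GGCGCC, held by 11.9% of all windows, was found in 1 of the 11 windows of the 9 members, that of Igf1 with its first base at -128. These are matches of letters, and no binding was measured.

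The array of control tumour 1 stood apart from the rest. Over the 45037 non-control probe sets, Pearson's r between it and any other array was 0.65 to 0.72, and 0.96 to 0.99 between any pair of the remaining 5 (a correlation across probe sets, not replicates). Its interquartile range was the narrowest at 2.25, with 3.36 for control tumour 2 and 3.64 for control tumour 3. Every Bmp4 array was wider, at 3.67 to 3.77. Signal of the 18 hybridization control probe sets was 13.01, 11.23 and 10.66 for control tumours 1 to 3. Each Bmp4 array was lower, at 10.04 to 10.30. Both measures therefore separated the groups, and leaving out control tumour 1 did not change this. The Actb control probe sets differed between the 3' and the 5' end of the transcript, a measure that climbs with RNA breakdown, by 1.44 to 2.33 in Bmp4 tumours and 2.62 to 5.64 in control tumours, so this measure was also apart between the groups. The same measure on Gapdh was 1.62, 3.13 and 2.42 in Bmp4 tumours and 2.46, 5.31 and 3.93 in control tumours, which overlapped. What part any of these array measures had in the results was not tested. Bmp4 itself, on its single probe set, had 5.04, 4.94 and 5.51 in Bmp4 tumours and 6.48, 5.93 and 4.99 in control tumours. No source used here places that probe set inside or outside the insert, so it is no check of the labels. The epithelial markers were measured in all tumours but not alike: Krt8 lay between 12.80 and 13.03 in Bmp4 tumours and between 12.10 and 13.02 in control tumours, while Cdh1 had 6.51, 6.90 and 6.88 in Bmp4 tumours and 5.14, 7.87 and 8.15 in control tumours. Without control tumour 1, differences over the 9 markers ran between -1.25 (Cdh1) and 0.12 (Krt8), and Epcam, Krt7, Krt19, Cldn3 and Cldn4 were negative too. All levels are log2 RMA values and all differences are Bmp4 minus control on that scale. The median difference of all probe sets was -0.20 with all 6 arrays and -0.06 without control tumour 1. Of any pair of differences given for 1 probe set, the first is with all 6 arrays and the second without control tumour 1.

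Kazald1 had the largest difference of the members. Its probe set 1436528_at had 9.19, 8.89 and 9.18 in Bmp4 tumours 1 to 3, against 6.21, 6.38 and 6.79 in control tumours 1 to 3. The groups were fully separate, the gap between the lowest Bmp4 and the highest control tumour being wider than the spread within either group. The means were 9.08 ± 0.17 in Bmp4 tumours and 6.46 ± 0.30 in control tumours (SD, n = 3 each), a difference of 2.62 ± 0.26 (limma SE), or 6.15-fold. Without control tumour 1 the difference was 2.50 ± 0.19 (SE), or 5.65-fold, and with control tumour 3 as the only control it was 2.29. The Kazald1 values were not dim in Bmp4 tumours but lay nearer the middle of the arrays in control tumours, and no call against background was measured. Their percentile among all probe sets of the same array was 83.8 to 85.4 in Bmp4 tumours and 51.2 to 62.8 in control tumours. Ordered from the most positive difference, Kazald1 was at place 6 of 45037 without control tumour 1 and at place 95 with all 6 arrays. In the authors' deposited table Kazald1 has a Bmp4 over control ratio of 5.99.

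No member probe set passed limma's threshold of adjusted p under 0.05 when all 45037 probe sets were tested. With all 6 arrays 0 of 24 passed, against 0% of all probe sets in either direction, and 1, Kazald1, had an unadjusted p under 0.05 (3.89% of all probe sets did in the higher direction and 1.81% in the lower). Without control tumour 1, 0 of 24 passed again, against 0.00222% of all probe sets in the higher and 0.00666% in the lower direction. The 4 that passed there belonged to Tnfrsf11b (higher), Ceacam10 and, through 2 probe sets, Myh1 (lower). At an unadjusted p under 0.05 there were 2 members of 24 higher and 2 lower without control tumour 1, near the background of 7.70% of all probe sets higher and 5.72% lower. Kazald1 had a limma adjusted p of 0.0695 in that fit. With 1 probe set per gene, the 1 of highest mean, Kazald1 alone among the 9 member genes passed without control tumour 1 (limma adjusted p = 0.0443), against 0.0196% of 20401 genes in the higher direction and 0% in the lower. After a further quantile normalization it passed over all probe sets too (0.0475), and over the remaining settings without control tumour 1 its adjusted p ran between 0.0579 and 0.827. Since this difference was the reason for taking Kazald1, these calls are not independent evidence.

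**Figure D1:**
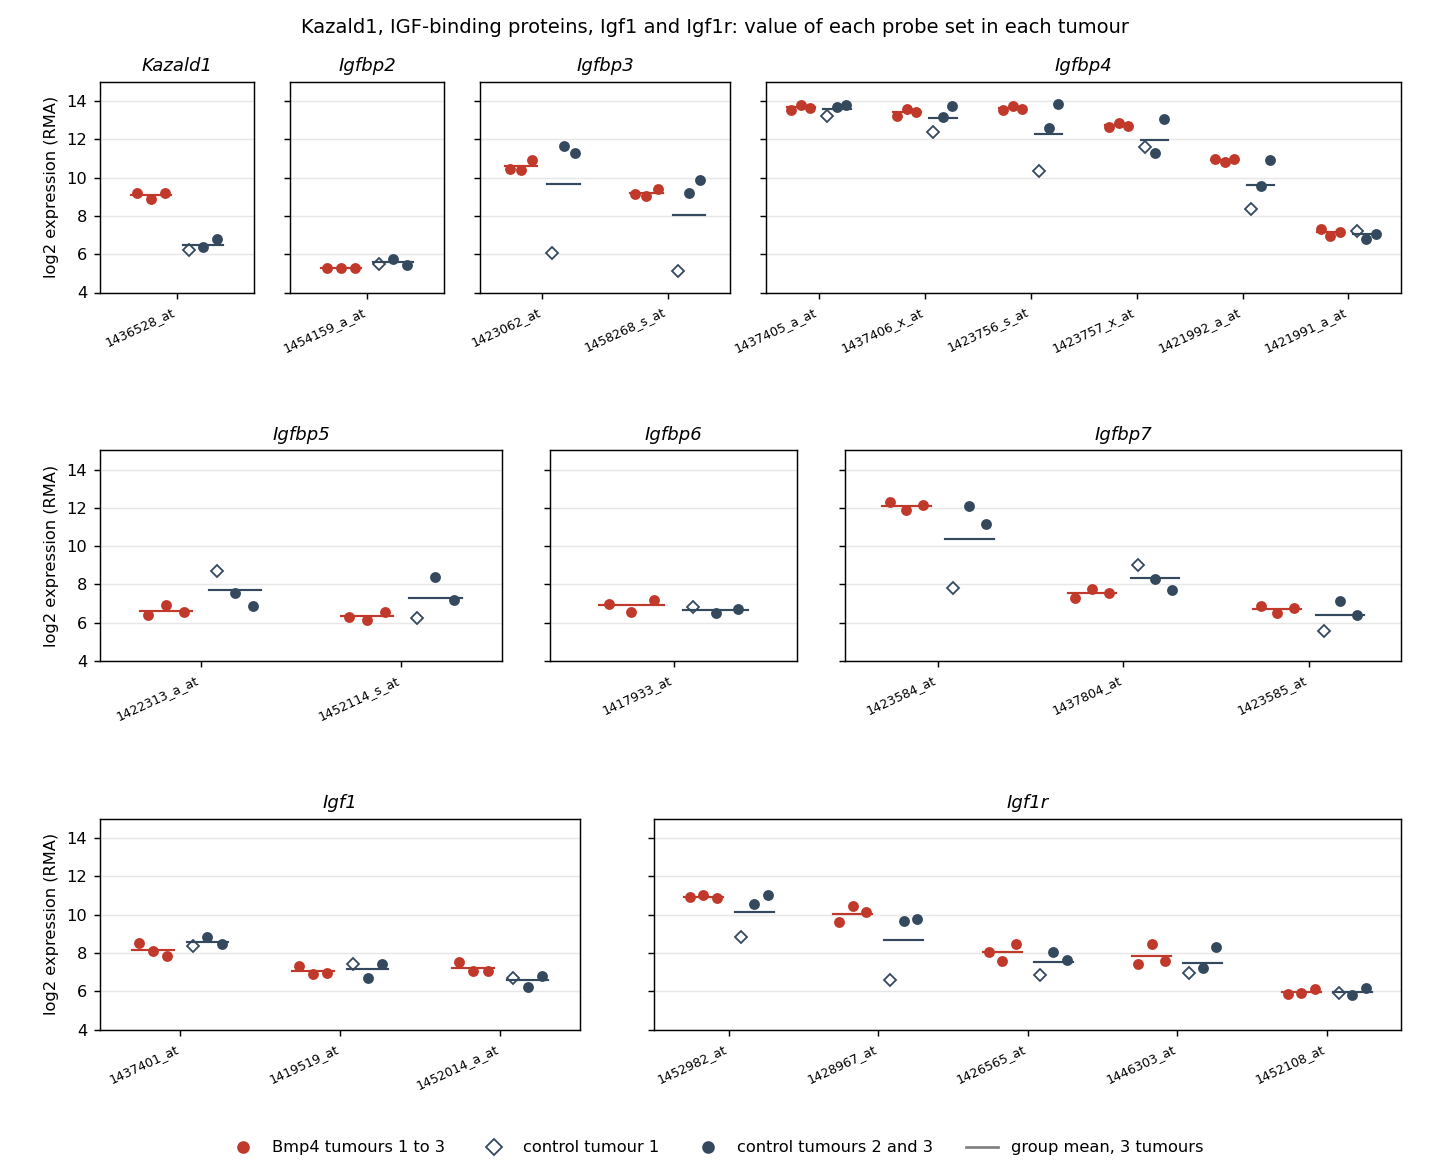
Log2 RMA expression (vertical axis) of the 24 member probe sets, 1 panel per gene, with a point per tumour and a line at each group's mean over 3 tumours; Bmp4 tumours stand left of control tumours, and control tumour 1 is the open diamond. Kazald1 lies between 8.89 and 9.19 in Bmp4 tumours and between 6.21 and 6.79 in control tumours, while for Igfbp3, Igfbp7 1423584_at and Igf1r 1428967_at the control mean is pulled down by control tumour 1.

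Likeness to Kazald1 was measured as the root mean square difference between profiles over the 6 tumours, each centred on its own mean, among 16427 named genes with 1 probe set each. The closest was Scara5, a ferritin receptor, at 0.22 log2 units, where the median gene was at 1.38. Scara5 had 9.83, 9.73 and 9.97 in Bmp4 tumours and 7.13, 7.70 and 7.89 in control tumours. Smad6, an inhibitory SMAD that BMP signalling is known to induce, followed at 0.26, with 8.36, 7.47 and 8.29 in Bmp4 tumours and 5.08, 5.78 and 5.91 in control tumours. Perp, a protein of epithelial junctions, and the T cell receptor segment Tcrb-J, both at 0.41, were also among the 5 closest. These profiles are alike mainly through the step between the groups, by which Kazald1 was chosen.

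**Figure D2:**
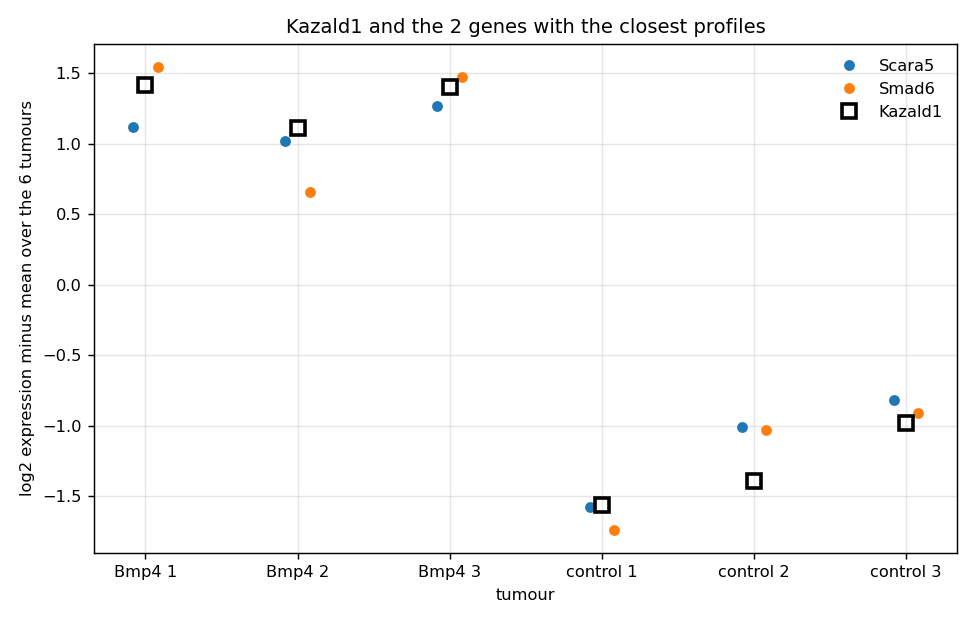
Log2 expression minus each gene's own mean over the 6 tumours (vertical axis) for Kazald1 (open squares) and the 2 genes with the closest profiles (dots), Scara5 at 0.22 and Smad6 at 0.26, by tumour. All 3 genes are above their mean in the 3 Bmp4 tumours and below it in the 3 control tumours, and Smad6 is lower than Kazald1 in Bmp4 tumour 2.

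The IGF-binding proteins did not share the step seen for Kazald1. Of their 15 probe sets, 11 had a positive difference with all 6 arrays. The number was 6 without control tumour 1, the sign of 5 having turned. Of all 45037 probe sets, 17129 were positive with all 6 arrays and 18563 without control tumour 1. Over all 24 members the median difference was 0.33 with all 6 arrays and 0.03 without control tumour 1. The groups did not overlap in 2 higher and 1 lower of the 24, against 10.6% of all probe sets higher and 14.9% lower. They did not overlap in 2 higher and 3 lower without control tumour 1, against 14.0% and 19.0% of all probe sets, and leaving out a tumour can only add to such a count. Counted either way, 12.5% of the members were apart with all 6 arrays, beside 25.6% of all probe sets, and 20.8% were apart without control tumour 1, beside 33.0%. Since the members were chosen on this contrast, nothing is read from these shares. The 3 apart in both were Kazald1, Igf1 1452014_a_at and Igfbp2.

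**Figure D3:**
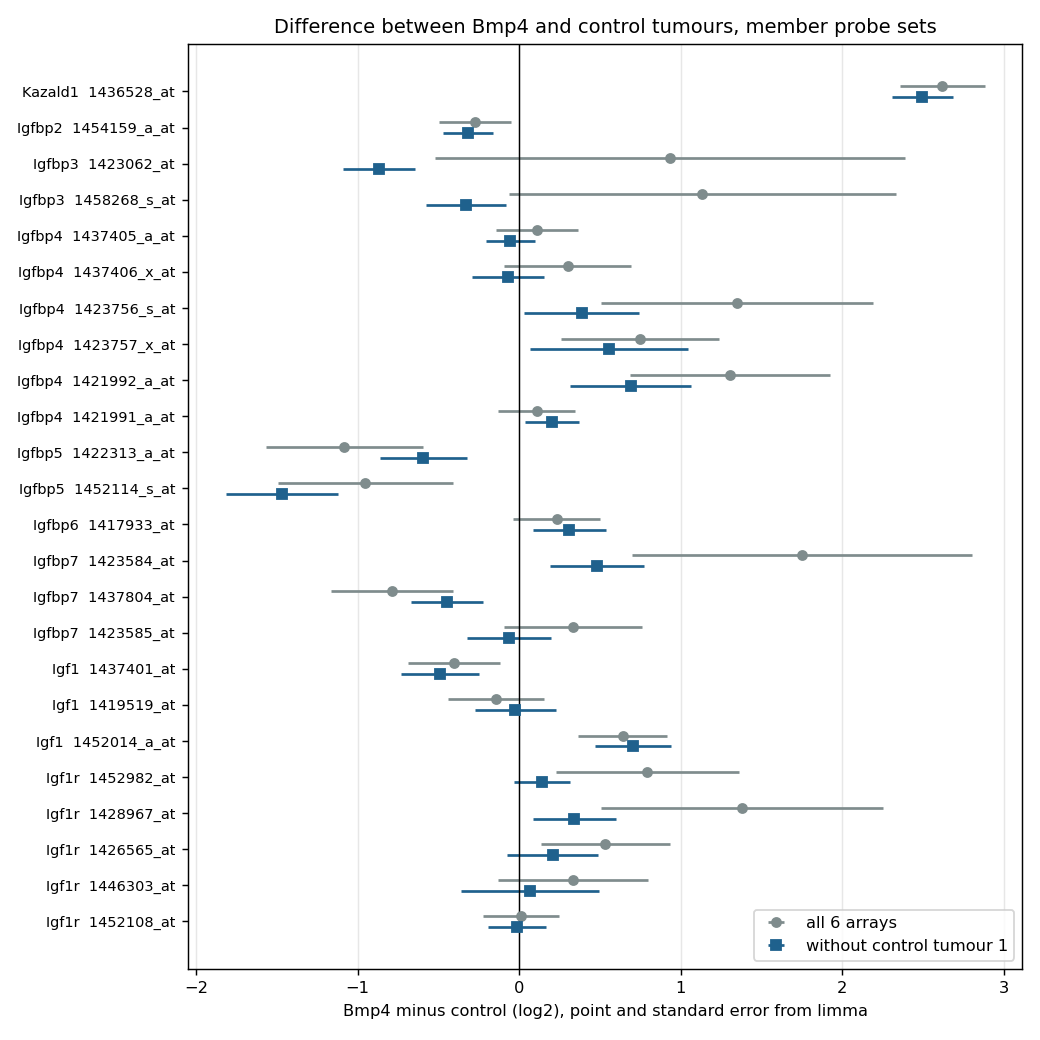
Difference between Bmp4 and control tumours (log2, horizontal axis) with its limma standard error for the 24 member probe sets, with all 6 arrays (circles) and without control tumour 1 (squares). Kazald1 is at 2.62 and 2.50, and both Igfbp3 probe sets are right of 0 with all arrays and left of it without control tumour 1.

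Igfbp3 encodes the main carrier of insulin-like growth factors in blood. Its probe set 1423062_at had 10.43, 10.39 and 10.94 in Bmp4 tumours, against 6.04, 11.63 and 11.28 in control tumours. Control tumour 1 was more than 4 log2 units below every other tumour, and control tumours 2 and 3 lay above all Bmp4 tumours. The difference was 0.94 ± 1.46 (SE) with all 6 arrays and -0.87 ± 0.22 (SE), or 0.55-fold, without control tumour 1, so its direction rested on that array. The probe set 1458268_s_at had 9.16, 9.06 and 9.41 in Bmp4 tumours and 5.14, 9.18 and 9.90 in control tumours. Here control tumour 2 fell inside the range of the Bmp4 tumours, and the difference without control tumour 1 was -0.33 ± 0.25 (SE), against 1.14 ± 1.2 (SE) with it. The authors' deposited table gives ratios of 0.569 and 0.759 for these probe sets.

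Igfbp5, which binds to matrix and cell surfaces, was the member with the most negative difference without control tumour 1. Its probe set 1452114_s_at had 6.29, 6.15 and 6.54 in Bmp4 tumours, against 6.24, 8.39 and 7.21 in control tumours. Control tumours 2 and 3 lay above all Bmp4 tumours and control tumour 1 among them. The difference was -0.95 ± 0.54 (SE) with all 6 arrays and -1.47 ± 0.35 (SE), or 0.36-fold, without control tumour 1, and -0.88 with control tumour 3 alone. The probe set 1422313_a_at had 6.40, 6.94 and 6.54 in Bmp4 tumours and 8.69, 7.57 and 6.87 in control tumours. It gave differences of -1.08 ± 0.49 and -0.59 ± 0.27 (SE) in the 2 settings, with Bmp4 tumour 2 just above control tumour 3. Both probe sets were negative in both settings, yet control tumour 1 was the highest tumour on one and near the lowest on the other. The authors' deposited table gives ratios of 0.353 and 0.78.

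Igfbp2, the neighbouring gene of Igfbp5 on mouse chromosome 1 with no protein-coding gene between them in RefSeq, gave low signal. Its probe set 1454159_a_at had 5.29, 5.30 and 5.29 in Bmp4 tumours and 5.49, 5.78 and 5.44 in control tumours. The groups did not overlap, but the difference was small, -0.27 ± 0.22 (SE) with all 6 arrays and -0.31 ± 0.15 (SE) without control tumour 1. All 6 values lay below the 50th percentile of their arrays, and after a further quantile normalization the difference with all 6 arrays was 0.01. The nearest profiles were those of Acaa1b, Pitpnb, Tead4, Ube3b and Nrf1, at 0.03 to 0.05 log2 units where the median gene was at 0.54. Acaa1b was dim as well, at 3.43 to 3.94 over the 6 tumours.

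Igfbp4, which in other settings restrains insulin-like growth factors until pappalysin cleaves it, had the most probe sets. On 1437405_a_at it had 13.54, 13.82 and 13.65 in Bmp4 tumours and 13.23, 13.67 and 13.77 in control tumours. The groups overlapped there, with differences of 0.11 ± 0.25 and -0.05 ± 0.15 (SE). On 4 of the other probe sets the control tumours spread more widely. On 1423756_s_at the values were 13.53, 13.76 and 13.60 in Bmp4 tumours and 10.36, 12.61 and 13.87 in control tumours. On 1421992_a_at they were 10.99, 10.82 and 10.95 in Bmp4 tumours and 8.38, 9.55 and 10.91 in control tumours. In both, control tumour 3 lay at the level of the Bmp4 tumours and control tumours 1 and 2 below it. The mean of the macrophage markers described further on was also below control tumour 3 in control tumours 1 and 2, though Csf1r and C1qb were not. Control tumours 1 and 2 were alike in that mean (7.98 and 7.95) but not on these Igfbp4 probe sets. The part of macrophages in the Igfbp4 values was not tested. The probe set 1423757_x_at had 12.64, 12.85 and 12.70 in Bmp4 tumours and 11.60, 11.27 and 13.07 in control tumours, and 1437406_x_at had 13.20, 13.59 and 13.43 in Bmp4 tumours and 12.37, 13.18 and 13.77 in control tumours. Again control tumour 3 was the highest of the 6 and control tumours 1 and 2 were the lowest. The remaining probe set 1421991_a_at had 7.30, 6.97 and 7.17 in Bmp4 tumours and 7.23, 6.82 and 7.07 in control tumours, a narrow range with no separation. By the array maker's naming, probe sets ending in _x_at or _s_at can also read transcripts of other genes. All 6 Igfbp4 probe sets were positive with all arrays and 4 without control tumour 1, where differences ran between -0.07 and 0.69. None had groups that did not overlap in either setting, and without control tumours 1 and 2 the differences lay between -0.36 and 0.07.

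Igfbp7, a matrix protein of vessel walls and stroma, was split by probe set. The probe set 1423584_at had 12.29, 11.90 and 12.13 in Bmp4 tumours and 7.82, 12.09 and 11.16 in control tumours, a difference of 1.75 ± 1.05 (SE) with all 6 arrays and 0.48 ± 0.29 (SE) without control tumour 1. On 1437804_at the Bmp4 tumours had 7.31, 7.76 and 7.57 and the control tumours 9.02, 8.27 and 7.72, with differences of -0.79 ± 0.38 and -0.45 ± 0.22 (SE). The groups overlapped on both, and control tumour 1 was the lowest tumour on the first and the highest on the second. The remaining probe set, 1423585_at, had 6.87, 6.49 and 6.79 in Bmp4 tumours and 5.59, 7.16 and 6.40 in control tumours, a difference of 0.33 ± 0.43 (SE) with all 6 arrays and of -0.06 ± 0.26 (SE) without control tumour 1. The control tumours spanned all Bmp4 values. Igfbp6, which prefers IGF2 as its ligand, had 6.97, 6.55 and 7.21 in Bmp4 tumours and 6.84, 6.49 and 6.71 in control tumours. These overlapped, with differences of 0.23 ± 0.27 and 0.31 ± 0.22 (SE).

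Igf1, the growth factor, gave opposite directions on its probe sets. On 1452014_a_at it had 7.53, 7.08 and 7.05 in Bmp4 tumours, against 6.70, 6.24 and 6.79 in control tumours. Each Bmp4 tumour lay above each control tumour, by 0.64 ± 0.28 (SE) on average with all 6 arrays and 0.70 ± 0.24 (SE), or 1.63-fold, without control tumour 1. On 1437401_at the values were 8.54, 8.08 and 7.84 in Bmp4 tumours and 8.38, 8.82 and 8.47 in control tumours. There the groups overlapped and the differences were -0.40 ± 0.28 and -0.49 ± 0.24 (SE). The third, 1419519_at, had 7.31, 6.90 and 6.93 in Bmp4 tumours and 7.42, 6.72 and 7.42 in control tumours, a difference of -0.14 ± 0.30 (SE) with all 6 arrays and -0.02 ± 0.25 (SE) without control tumour 1. All Bmp4 values there lay within the range of the control tumours. No source used here says which transcripts of Igf1 each probe set reads. Among the 5 closest profiles to 1452014_a_at were those of Spindoc, Gba2, Adipoq and Stat5a, at 0.05 to 0.08 log2 units where the median gene was at 0.67.

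Igf1r, the receptor, did not differ beyond the spread between tumours. On 1452982_at it had 10.92, 11.03 and 10.87 in Bmp4 tumours and 8.84, 10.58 and 11.01 in control tumours. On 1428967_at the Bmp4 tumours had 9.59, 10.44 and 10.14 and the control tumours 6.6, 9.67 and 9.76. Apart from control tumour 1, which was the lowest tumour on both, the groups overlapped. Their differences of 0.79 ± 0.57 and 1.38 ± 0.87 (SE) with all 6 arrays were 0.14 ± 0.18 and 0.34 ± 0.26 (SE) without control tumour 1. On 1426565_at the Bmp4 tumours had 8.07, 7.61 and 8.47 and the control tumours 6.87, 8.06 and 7.63. On 1446303_at the Bmp4 tumours had 7.42, 8.49 and 7.60 and the control tumours 6.97, 7.24 and 8.30. On 1452108_at the Bmp4 tumours had 5.85, 5.89 and 6.13 and the control tumours 5.90, 5.79 and 6.16. The groups overlapped on each of them. These 3 probe sets differed by 0.01 to 0.53 with all 6 arrays and by -0.01 to 0.21 without control tumour 1, and the groups of none of the 5 were apart in either setting.

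Markers of other cells in the tumours varied alongside some of these values. Macrophage markers, all 8 of the list measured, averaged 10.72, 10.05 and 9.76 in Bmp4 tumours and 7.98, 7.95 and 10.07 in control tumours. This mean was low in control tumours 1 and 2 and not in control tumour 3, with 0 of 8 markers apart between the groups in either setting. The markers were split in control tumour 1, where Csf1r (12.88) and C1qb (13.17) were the highest of the 6 tumours. The remaining markers were below all Bmp4 tumours there. Without control tumour 1, pericyte markers averaged 7.28 to 7.55 in Bmp4 tumours and 7.85 to 8.07 in control tumours, with 4 of 6 apart and lower in Bmp4 tumours. Endothelial markers averaged 7.48 to 7.68 in Bmp4 tumours and 7.75 to 8.06 in control tumours, with 5 of 8 lower. In the same setting 4 of 9 epithelial markers were apart and lower in Bmp4 tumours, at 7.69 to 7.90 against 8.06 to 8.18 in control tumours. Beside these counts, 18.3% of all genes were apart and lower in that setting. With all 6 arrays only 1 of 6 pericyte, 1 of 8 endothelial and 3 of 9 epithelial markers were apart and lower, beside 13.6% of all genes. The means of these 3 lists had the direction of Igfbp3 and Igfbp5 without control tumour 1, and their part in those differences was not tested. Fibroblast markers, 10 of 10 measured, averaged 10.62 to 10.75 in Bmp4 tumours and 10.63 to 11.10 in control tumours 2 and 3. They were at 8.61 in control tumour 1, where Igfbp3 and Igfbp7 1423584_at were lowest too. Col1a1 alone among them was not lowest there (10.92, against 10.03 to 10.56 in Bmp4 tumours), while the epithelial marker Krt18 was (9.82). That array had the narrowest interquartile range. The part of fibroblasts or of that array in these values was not tested. Adipocyte markers, 6 of 7 measured, averaged 5.66 to 5.80 in Bmp4 tumours and 5.66 to 6.36 in control tumours. In each of control tumours 2 and 3, 3 of the 6 were below the array's 25th percentile. The brightest, Fabp4, had 10.08, 10.69 and 10.54 in Bmp4 tumours and 8.47, 11.27 and 10.27 in control tumours. Retn was apart and lower (-0.96 and -0.54) and the dim Adipoq apart and higher (0.60 and 0.655) in both settings. Skeletal muscle markers averaged 4.89 to 5.05 in Bmp4 tumours and 4.83 to 6.03 in control tumours, and Myh1, a muscle myosin outside that list, was among the 4 probe sets named above as past the threshold. Osteoblast markers, 4 of 5 measured, averaged 6.79 to 6.92 in Bmp4 tumours and 5.99 to 7.04 in control tumours, and went both ways. Runx2, an osteoblast transcription factor, had 10.44, 10.73 and 10.57 in Bmp4 tumours and 5.68, 10.09 and 9.89 in control tumours. It was apart and higher, by 2.03 with all 6 arrays but 0.59 without control tumour 1, where Kazald1 had 2.50. Sp7, another such factor, had 6.31, 6.28 and 6.14 in Bmp4 tumours and 7.67, 6.77 and 6.37 in control tumours, apart and lower. For Ibsp and Alpl the groups overlapped. The part of these osteoblast markers in the Kazald1 difference was not tested.

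**Figure D4:**
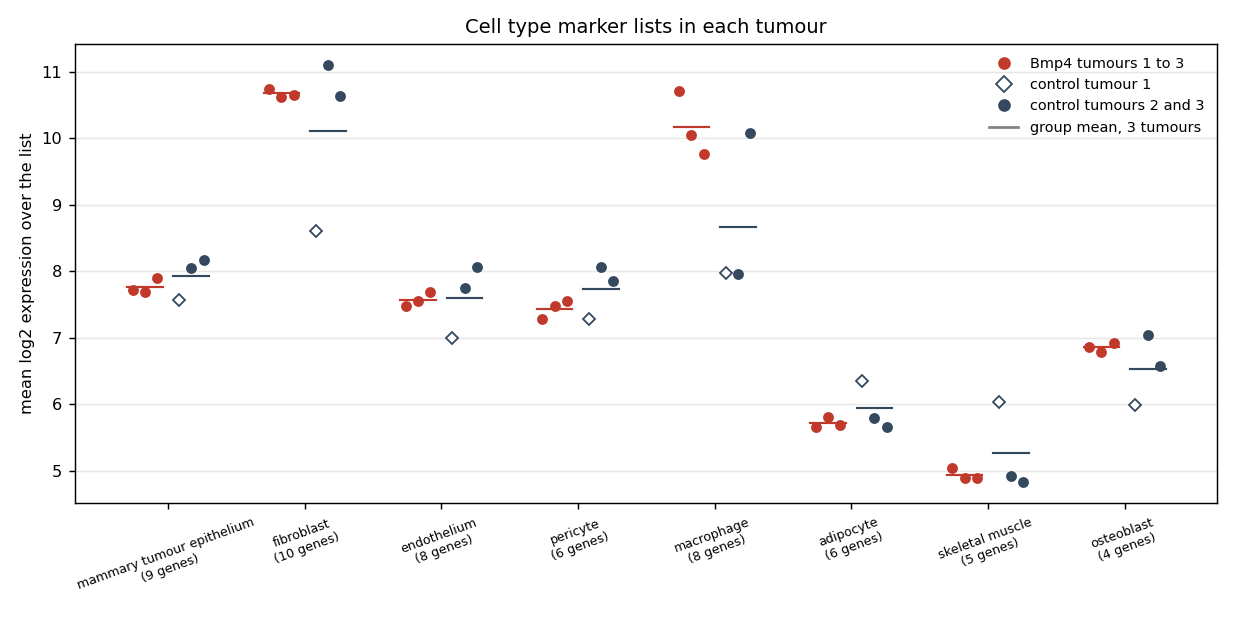
Mean log2 expression over each cell type marker list (vertical axis) in each tumour, with group means over 3 tumours as lines; Bmp4 tumours stand left of control tumours. The macrophage mean is low in control tumours 1 and 2 (7.98 and 7.95) and the fibroblast mean in control tumour 1 (8.61). The pericyte and endothelial means of control tumours 2 and 3 lie above those of the Bmp4 tumours.

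The wider IGF axis was set beside the members through a list of 66 other genes, of which 62 were measured. None passed the limma threshold over all probe sets in either setting. At an unadjusted p under 0.05, 5 of the 62 were higher and 1 lower with all 6 arrays, where 4.14% of all genes were higher and 1.35% lower. Without that array 14 were higher and 6 lower, beside 8.87% and 5.56% of all genes. The median difference was 0.05 with all 6 arrays and -0.04 without control tumour 1, beside -0.12 and -0.04 for all genes. The groups were apart in 12 genes higher and 8 lower with all 6 arrays (32.3% of the list), where 12.9% of all genes were apart and higher and 13.6% apart and lower. Without control tumour 1 they were apart in 16 higher and 15 lower in the list, beside 15.9% and 18.3% of all genes.

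Of 10 measured relatives that share the IGF-binding protein domain, 8 had a positive difference without control tumour 1 and 7 with all 6 arrays. Of all 20401 genes, 9038 and 9069 were positive in these settings. Without control tumour 1, 5 of the 10 relatives were apart and higher and 1 apart and lower, beside 15.9% and 18.3% of all genes. With all 6 arrays 4 were apart and higher and 0 apart and lower, beside 12.9% and 13.6%. The list was chosen with earlier results of these data known, so nothing is read from these counts. Ccn2, a matricellular protein of the CCN family, had 12.06, 11.96 and 12.25 in Bmp4 tumours, against 8.00, 10.57 and 9.72 in control tumours. Each Bmp4 tumour was above each control tumour, by 2.66 ± 0.64 (SE) on average, and by 1.95 ± 0.27 (SE) without control tumour 1, where its limma adjusted p of 0.244 missed the threshold. Ccn3, of the same family, differed by 1.10 and 0.97 in the 2 settings, Ccn5 by 0.58 and 0.76, and Crim1, a membrane protein that binds BMPs, by 1.44 and 0.70, none past the threshold. Without control tumour 1 the other probe set of Ccn3 differed by 0.90 and that of Crim1 by 0.21. Among other secreted or surface proteins with Kazal or follistatin-like domains, Spock1 differed by -0.76 and -0.59, and Fstl3, a binder of activins, by 0.32 and 0.60. Control tumour 1 carried most of the difference of Agrn (2.10 and 0.58) and of Reck, a membrane inhibitor of metalloproteinases (2.32 and 0.58). Without that tumour the other probe set of Spock1 differed by -0.17 and that of Agrn by 0.17. None of these passed.

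Around the receptor, the growth hormone receptor Ghr had 10.95, 11.21 and 11.22 in Bmp4 tumours and 6.38, 10.50 and 10.51 in control tumours. It differed by 2.0 ± 1.12 (SE) with all 6 arrays and by 0.62 ± 0.15 (SE) without control tumour 1. Its other probe sets differed by 0.36 and 0.48 without control tumour 1. The insulin receptor Insr turned in sign with that array, at 0.25 ± 0.73 and -0.62 ± 0.18 (SE), and its other 2 probe sets differed by -0.26 and -0.19 without it. Igfals, the acid-labile partner of IGFBP3, differed by -0.35 and -0.30, and Ins2 by -0.65 and -0.30. None of the 4 passed.

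Of the genes that cut binding proteins or hold back the cutting, Adam9 differed by 2.82 and 0.89 and Pappa, which cleaves IGFBP4, by -0.84 and -0.39, both larger in size with control tumour 1. Stc1, an inhibitor of pappalysin, differed by -0.13 and -0.58, and Adam12 by -0.45 and -0.36. Without control tumour 1 other probe sets differed by 0 and -0.30 for Pappa, -0.42 for Stc1 and -0.04 for Adam12. In the signalling list Tsc2, a brake on mTOR, differed by 1.26 and 1.39, and Irs2, a docking protein of the receptor, by 0.85 and 0.81, about alike in both settings. Grb10, an adaptor that restrains the receptor, differed by -0.15 and -0.88, and its other 2 probe sets by -0.12 and 0 without control tumour 1. Socs2, an inhibitor of growth hormone signalling, differed by -0.47 and -0.56, while its other 4 probe sets lay between -0.41 and 0.29 without that tumour. The 3 Igf2 mRNA-binding proteins Igf2bp1, Igf2bp2 and Igf2bp3 differed by -0.75, -0.40 and -0.30 with all 6 arrays, and by -0.34, -0.37 and -0.07 when control tumour 1 was left out. Their other probe sets then lay between -0.73 and 0.20 for Igf2bp1, at -0.05 for Igf2bp2 and between -0.17 and 0.16 for Igf2bp3. None of these passed the threshold.

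**Figure D5:**
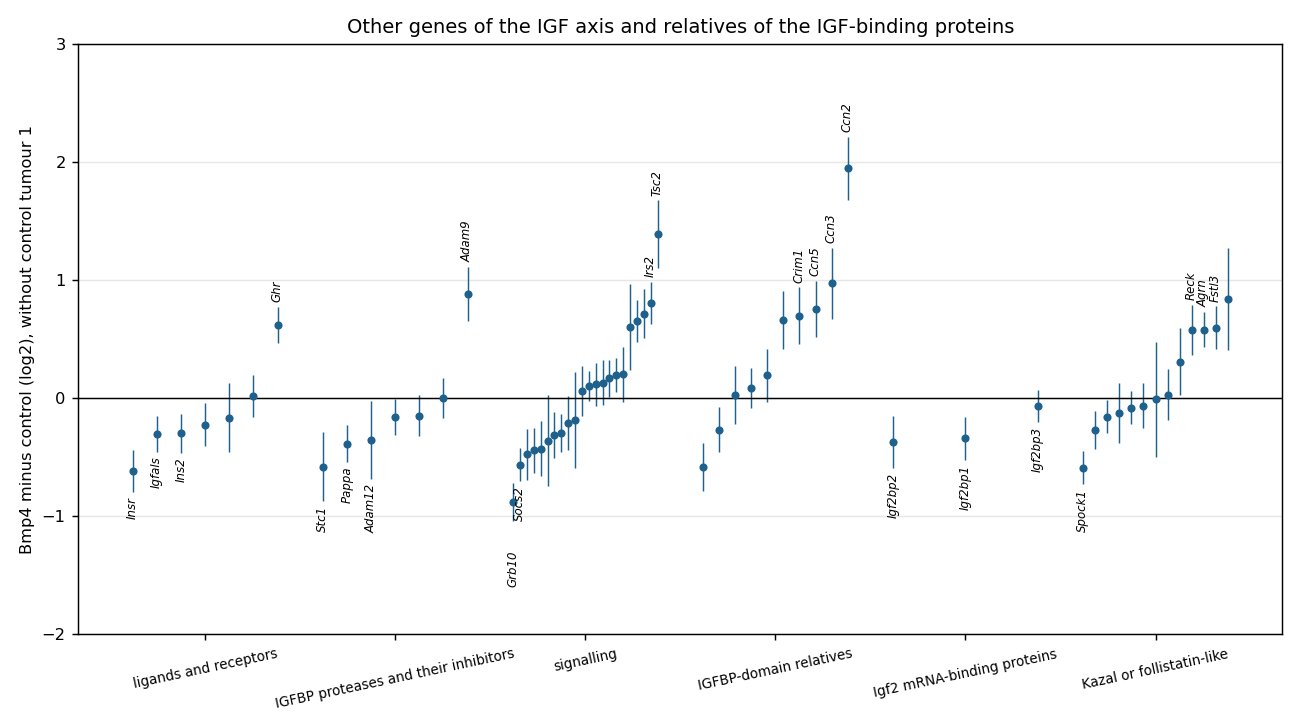
Difference between Bmp4 and control tumours without control tumour 1 (log2, vertical axis, with limma standard errors) for the 62 measured genes of the wider IGF axis, sorted within each list; up to 4 genes per list are named. Ccn2 lies highest at 1.95 (2.66 with all 6 arrays) and Grb10 lowest at -0.88 (-0.15 with all 6 arrays), and none passed the threshold.

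The authors' deposited table was compared with these differences for all 24 members. Its log2 ratios had the sign of the differences without control tumour 1 in 21 of 24 probe sets and of those with all 6 arrays in 19 of 24. The median absolute gap was 0.08 log2 units in the first case and 0.32 in the second.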

How the data were processed

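Each of the 6 arrays, 1 per tumour, was deposited as log2 expression of its probe sets. RMA and Partek 6.6 are named in the submitters' processing notes, and the sources used here do not say which arrays were normalized together. A table by the authors holds, per the file headers, a ratio of Bmp4 over control, p-values and adjusted p-values, beside a signed fold change and F scores not used here. RNA was labelled from the 3' end with a biotin kit, per the labels' protocols. Groups and tumour numbers came from the labels.

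All 45037 non-control probe sets (64 controls left out) were fitted with limma 3.58.1 in R 4.3.3 (lmFit and eBayes, Bmp4 minus control). Two-sided p-values were adjusted over all of them after Benjamini and Hochberg, with all 6 arrays and without control tumour 1. An exact permutation test of 3 against 3 cannot go below p = 0.1. The number of arrays limits the precision. For genes, the probe set of highest mean over the 6 arrays was used, with symbols updated through RefSeq GRCm38.p6, which gave 20401 genes. The fits were run on simulated data with independent noise for each probe set and added differences. Those data held no array that stood apart, so the run does not cover that feature of these arrays. Members, lists and settings were chosen with earlier results of these data known. All member probe sets were named; of other lists, up to 4 genes with the smallest p without control tumour 1; and the 5 closest profiles to each member apart in both settings, of which some are not reported here. Alternatives were quantile normalization again, median centring, filters on dim probe sets, 1 probe set per gene, trend and robust options, tumour number as a block, and tumours left out.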

Additional observations from a re-analysis of the deposited data

How the results depend on the processing

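The Kazald1 difference of 2.62 with all 6 arrays stayed between 2.50 and 2.79 when any single tumour was left out, was 2.48 and 2.80 after quantile normalization and median centring, and was 2.29 against control tumour 3 alone. The count of probe sets past the threshold was 0 with all 6 arrays and 0 to 4 when 1 tumour was left out, the 4 arising without control tumour 1. Without control tumour 1 that count of 4 (1 higher, 3 lower) became 6 after a further quantile normalization (3 higher, 3 lower) and 3 after median centring. With 1 probe set per gene it was 4 higher and 0 lower. It became 1 without probe sets below the 50th percentile and 0 with tumour number as a replicate block. With a Bmp4 tumour also left out it was 2 without Bmp4 tumour 2, and 0 without Bmp4 tumour 1 or Bmp4 tumour 3. With a lone control, that tumour is assumed to vary like the Bmp4 tumours. The members whose groups did not overlap numbered 3 with all arrays, 5 without control tumour 1, and 2 both after median centring and with 1 probe set per gene. The difference of Igfbp2 1454159_a_at turned to 0.013 after quantile normalization of all 6 arrays. Igf1 1437401_at then moved from -0.40 to -0.89. Igfbp4 1437405_a_at and 1421991_a_at, both at 0.11 before, turned to -0.03 and -0.11. The cause was not tested. Leaving out control tumour 1 turned the sign of 6 of the 24 member differences, among them both of Igfbp3. Same-numbered tumours' deviations from their group means correlated at -0.13, -0.22 and -0.04. The control mean included control tumour 1, which stood apart, so these values cannot tell whether tumour numbers pair the samples. No array measured a call against background, so sizes for dim probe sets are uncertain.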
